A study of Galdieria sulphuraria with 9 samples.

Results

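The transcripts of 2 lipid enzyme genes, of the 6538 genes in the count files, were followed through a temperature timeline of the red alga *Galdieria sulphuraria*. They are Gs42260, named 3R-hydroxymyristoyl ACP dehydrase, and Gs16010, named 3-oxo-5-alpha-steroid 4-dehydrogenase 3. Both were picked by gene number from the study's list of genes that differed between heat and cold, so their heat and cold levels are given as a description, without a test. In that list Gs16010 stands under the same locus interval as its neighbour Gs16000, an ABC transporter gene. The cells were wild type batch cultures of strain 074W, a unicellular alga of hot and acidic habitats, grown photoautotrophically with constant light and shaking. Cultures A, B and C each started at 42 °C and were moved as a whole from step to step. H-42 (cultures B and C) was taken after 2 weeks at 42 °C, C-28.1 (A, B and C) after the following 48 h at 28 °C, H-46 (A and C) after a further 48 h at 46 °C, and C-28.2 (A and C) after a last 48 h at 28 °C. The study called both samplings at 28 °C cold and the other pair heat. Every direction given here rests on the temperatures in the sample labels. The heat and cold headings of the study's coverage tables stand the other way round from these labels for most genes that changed strongly, Gs42260 among them, and which source is right could not be settled here. If the labels were exchanged, each cold and heat direction below would turn. Time since the start of the culture and the order of the temperatures cannot be told apart from the samplings themselves.

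The dehydrase acts in type II fatty acid synthesis, the plastid pathway in which separate enzymes lengthen an acyl chain held on the acyl carrier protein (ACP). Each round condenses the chain with malonyl-ACP, reduces the product, removes water and reduces again. The dehydrase carries out the removal of water. In bacteria its substrate 3R-hydroxymyristoyl-ACP is also the acyl donor for the first step of lipid A synthesis, so that the name marks a branch point there. The name of Gs16010 is that of a family of reductases that act on steroids. In humans the enzyme of this name is known for reducing polyprenol to dolichol, the lipid that carries the sugar chain for N-glycosylation. The role of the algal protein was not measured here.

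Libraries held 4389066 to 8989387 counts, and both genes passed the filter on low counts that left 6264 genes. Levels are given in CPM, counts scaled to a common library size with TMM factors, a normalization that assumes that most genes do not change. A CPM is a share of the library and does not give the amount of a transcript per cell. The genes differed in precision. Gs42260 had 253 to 1961 counts per library, more on average than 74.9% of the tested genes. Gs16010 had 24 to 62, more than 6.77% of them. For single libraries the exact 95% Poisson interval reached on average 4.45% to 12.5% of the count to either side in Gs42260 and 25.8% to 42.4% in Gs16010. These intervals cover counting error only.

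The dehydrase transcript was most abundant at the second stay at 28 °C. Listing cultures in the order A, B, C, the Gs42260 transcript had 696 and 648 counts at H-42, 456, 1303 and 573 at C-28.1, 253 and 464 at H-46, and 1961 and 1119 at C-28.2. Scaled to library size these were 78.8 and 78.0 CPM in H-42, 104, 157 and 91.4 CPM in C-28.1, 50.8 and 95.2 CPM in H-46, and 353 and 220 CPM in C-28.2. Both C-28.2 libraries lay above the other 7. All 3 C-28.1 libraries lay above both H-42 libraries, but culture C of H-46 lay above culture C of C-28.1, so heat and cold overlapped. Across the tested genes, 33.2% had heat and cold libraries that did not overlap, and neither Gs42260 nor Gs16010 was among them.

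The mean level of Gs42260 was lowest in H-46, at 73.0 ± 31.4 CPM (SD, n = 2), and close to it in H-42, at 78.4 ± 0.53 CPM (SD, n = 2). It was 117 ± 34.6 CPM in C-28.1 (SD, n = 3) and 287 ± 94.3 CPM in C-28.2 (SD, n = 2). The H-42 range lay inside that of H-46, and the ranges of C-28.1 and H-46 overlapped. Cold over heat, the log2 fold change was 1.29 (standard error 0.36), or 2.44-fold, with 185 ± 107 CPM in cold (SD, n = 5) against 75.7 ± 18.4 CPM in heat (SD, n = 4). Here n counts libraries of cultures sampled repeatedly, and each of these SDs also holds the difference between the samplings pooled in it. Without culture A of C-28.2 the log2 fold change was 0.93.

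**Figure D1:**
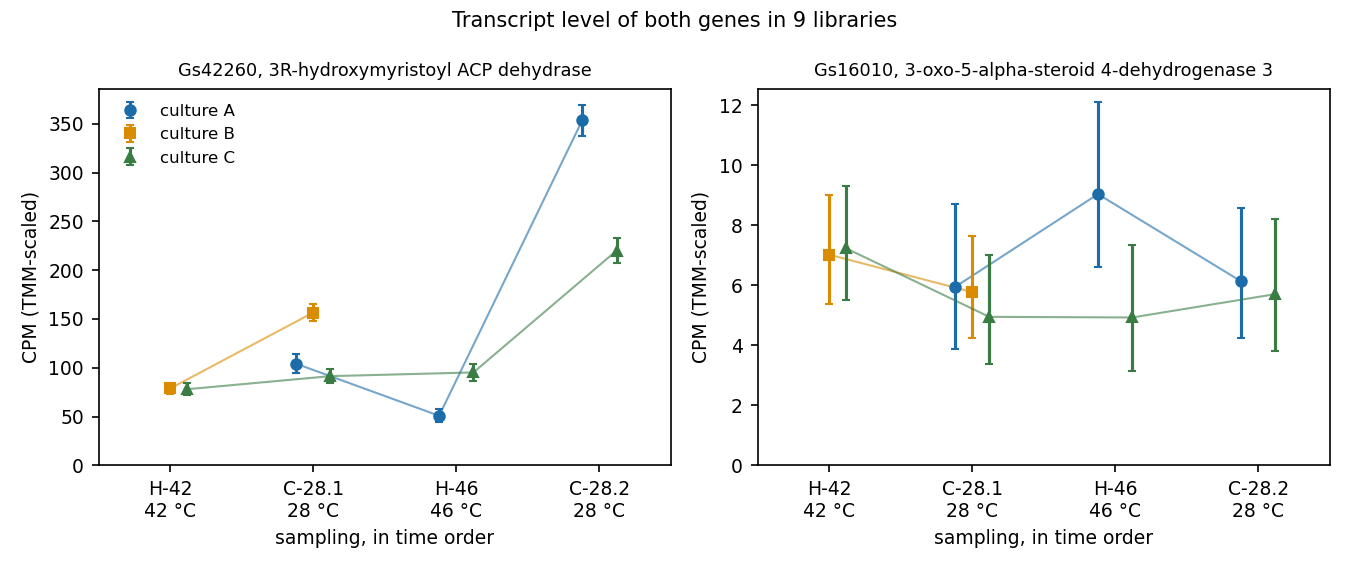
CPM of Gs42260 (left) and Gs16010 (right) at each sampling in time order; points are libraries, lines join the libraries of one culture, and bars are exact 95% Poisson intervals of the count. For Gs42260 the C-28.2 libraries (353 and 220 CPM) lie above all others, while all 9 Gs16010 libraries lie between 4.92 and 9.03 CPM.

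Within single cultures the direction at 28 °C was shared and its size was not. From H-42 to C-28.1, Gs42260 was 1.99-fold higher in culture B and 1.17-fold higher in culture C. From H-46 to C-28.2 it was 6.96-fold higher in culture A and 2.31-fold higher in culture C. At the rewarming between them, culture A was 2.05-fold lower in H-46 than in C-28.1, whereas culture C was 1.04-fold higher. Culture C, the one culture with libraries of all 4 samplings, thus had 78.0, 91.4, 95.2 and 220 CPM along the timeline. Its first 3 values stayed within 78.0 to 95.2 CPM.

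The samplings of one kind were compared in edgeR's quasi-likelihood model with 4 conditions, since the study's list of heat and cold genes was not made from these contrasts. The genes were still chosen with earlier results of these data known, so these tests are not fully independent of the choice. A gene was past the threshold when its p, adjusted over all genes by the method of Benjamini and Hochberg, was under 0.01 and its level changed more than 2.5-fold. Between H-46 and H-42, which 0.0479% of the tested genes separated at this threshold, the log2 fold change of Gs42260 was -0.10 (edgeR adjusted p = 0.934, standard error 0.35). The 95% confidence interval of this difference ran from -0.86 to 0.66, so changes up to those sizes are not excluded. Without culture A of H-46 the value was 0.27.

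C-28.2 exceeded C-28.1 in Gs42260 by a log2 fold change of 1.29 (standard error 0.31, 95% confidence interval 0.61 to 1.96), or 2.44-fold. Its adjusted p was 0.0231 in edgeR's test, so it was not past the threshold, which 0.016% of the genes passed. In the same test 35.5% of all tested genes had an unadjusted p below 0.05, so a difference between these samplings was widespread. Because the same cultures were sampled again, the fit was repeated with culture as a replicate block, which gave 1.46 (adjusted p = 0.00944 from edgeR, with 0.00224 to 0.0997 over the alternatives run), just past the threshold. DESeq2 gave 1.28 with an adjusted p of 0.00224, under the 2.5-fold minimum. Of the 6264 genes 1 passed without the block, 136 with it and 148 in DESeq2. Both cultures with a pair of cold libraries had the same direction, culture A with 3.39-fold and culture C with 2.41-fold more in C-28.2.

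The cold shifts were also compared with each other. Gs42260 was higher in C-28.1 than in H-42 by a log2 value of 0.58 (standard error 0.32) and higher in C-28.2 than in H-46 by 1.97 (standard error 0.36), both given as a description. The difference between the shifts was 1.39 (standard error 0.47, 95% confidence interval 0.37 to 2.41, adjusted p = 0.117 from edgeR), which was not past the threshold. In this comparison 0% of the 6264 genes passed in edgeR, 1551 had an unadjusted p below 0.05, DESeq2 called 123, and edgeR with the block 3. Without culture C of H-46, which leaves H-46 with culture A alone, it was 1.91 (adjusted p = 0.00970 from edgeR, with up to 0.323 over the alternatives run) and past the threshold. The lone library was then assumed to vary like the other samplings.

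Gs16010 stayed at a low level throughout. In the same order of cultures it had 62 and 60 counts at H-42, 26, 48 and 31 at C-28.1, 45 and 24 at H-46, and 34 and 29 at C-28.2. These corresponded to 7.02 and 7.23 CPM in H-42, 5.94, 5.77 and 4.95 CPM in C-28.1, 9.03 and 4.92 CPM in H-46, and 6.13 and 5.70 CPM in C-28.2. Both the highest and the lowest library were thus H-46 libraries, culture A and culture C, and their range held all other values. The Poisson intervals of these libraries were 32.8 to 60.2 and 15.4 to 35.7 counts before scaling. They overlapped, which is not a test of whether the libraries differ.

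By sampling, the mean of Gs16010 was 5.55 ± 0.53 CPM in C-28.1 (SD, n = 3), 5.91 ± 0.30 CPM in C-28.2 (SD, n = 2), 6.98 ± 2.91 CPM in H-46 (SD, n = 2) and 7.12 ± 0.15 CPM in H-42 (SD, n = 2). Both H-42 libraries lay above all 5 cold libraries, and H-46 overlapped with every other sampling. Cold over heat the log2 fold change was -0.31 (standard error 0.25), from 5.70 ± 0.45 CPM in cold (SD, n = 5) and 7.05 ± 1.68 CPM in heat (SD, n = 4). Again n counts libraries of repeatedly sampled cultures, with samplings pooled. Without culture A of H-46 the log2 fold change was -0.17. That library was the lowest of all for Gs42260 and the highest for Gs16010, and its part in either value beyond leaving it out was not tested.

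In Gs16010 none of the same 3 contrasts was past the threshold. H-46 over H-42 gave a log2 fold change of -0.03 (95% confidence interval -0.83 to 0.77, adjusted p = 0.986 from edgeR). C-28.2 over C-28.1 gave 0.09 (95% confidence interval -0.67 to 0.86, adjusted p = 0.865 from edgeR). The difference between the cold shifts was 0.12 (95% confidence interval -0.99 to 1.23, adjusted p = 0.897 from edgeR). Changes up to the confidence limits are not excluded, and the values do not show that the level was constant. The standard errors were close to those of Gs42260, which had far more counts. They were 0.37 against 0.35 in H-46 over H-42, and 0.35 against 0.31 in C-28.2 over C-28.1. For the difference between the cold shifts they were 0.50 against 0.47. Within cultures, Gs16010 went from H-42 to C-28.1 1.22-fold down in B and 1.46-fold down in C, and from H-46 to C-28.2 1.47-fold down in A but 1.16-fold up in C.

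Of the genes next to Gs16010, 1 had a different pattern. Gs16000, which lies before it in the order of the reference annotation and is named as an ATP-binding ABC transporter protein, had 224 and 165 counts in H-42, 926, 1903 and 1678 in C-28.1, 119 and 131 in H-46, and 610 and 943 in C-28.2. Every cold library of Gs16000 (110 to 268 CPM) lay above every heat library (19.9 to 26.9 CPM). It rose in cold by a log2 fold change of 3.07 (edgeR adjusted p = 7.77e-06, standard error 0.26), or 8.37-fold, and since it is on the study's list too, this is not independent evidence of its direction. Gs16020, the unnamed gene after Gs16010, had a pattern closer to that of Gs16010, with culture A of H-46 as its highest library and both H-42 libraries above all 5 cold ones. It had 23.8 to 27.4 CPM in cold and 29.1 to 37.9 CPM in heat (log2 fold change -0.34, edgeR adjusted p = 0.114, standard error 0.16). Heat and cold thus did not overlap in Gs16020, as in 33.2% of all tested genes. In Gs16010 they did, with culture C of H-46 as the lowest library. The annotated spans of the 3 genes do not overlap in that annotation. The strand setting of the counting is not given in the sources used here.

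**Figure D2:**
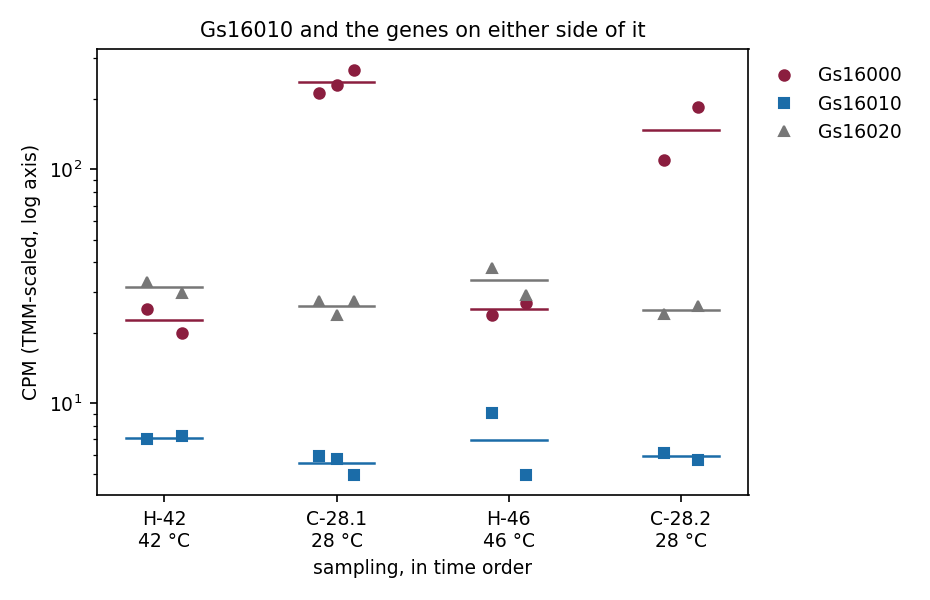
CPM of Gs16010 and the gene on either side of it at each sampling, on a log axis; points are libraries and short lines are means. Gs16000 moves from 19.9 to 26.9 CPM in heat to 110 to 268 CPM in cold, whereas Gs16010 stays between 4.92 and 9.03 CPM; CPM is not scaled to gene length, so heights are not compared between genes.

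Of the genes beside Gs42260, Gs42270 had overlapping levels in heat and cold, with 208 to 256 CPM in heat and 196 to 255 CPM in cold (log2 fold change -0.08, edgeR adjusted p = 0.711, standard error 0.16). Gs42250 was barely counted, with 6 to 31 counts per library. Its cold over heat log2 fold change of 1.45 (edgeR adjusted p = 0.0195, standard error 0.44) had the direction of Gs42260 and was not past the threshold. In the model with 4 conditions it was 1.60 (adjusted p = 0.00229 from edgeR) and past it. Gs42250 was also past the threshold at the first shift, C-28.1 against H-42, with 2.41 (adjusted p = 0.00266 from edgeR), but not at the second, C-28.2 against H-46, with 0.79 (adjusted p = 0.216 from edgeR). The difference between these shifts was -1.62 (adjusted p = 0.168 from edgeR) and not past it. Neither neighbour has a product name, and their annotated spans do not overlap that of Gs42260.

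Among the other named genes of lipid metabolism, several on the fatty acid synthesis list rose in cold, though not the reductases of the steps next to the dehydrase at this threshold. In all, 5 of the 19 listed genes were past the threshold in cold against heat, 4 higher and 1 lower. Of all tested genes 9.87% were past it, 5.4% higher and 4.47% lower. Their median log2 fold change was 0.21, and that of all genes tested was -0.01. Of the 19 genes, 3 are on the study's own heat and cold list, among them 2 of the 5 called, so their directions are not independent evidence. The lists hold only genes with a product name in the study's tables and are therefore incomplete. Those tables include the heat and cold list, so a gene could enter a list because it differed in these data. The share of listed genes called is therefore not independent of their choice, and it is given as a description.

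On the fatty acid synthesis list 3 of 5 genes rose in cold and 0 fell, with a median log2 fold change of 1.66. Among the 3 is the omega-6 fatty acid desaturase gene Gs25760. The enzyme puts a second double bond into acyl chains, which is not a step of the cycle described above for the dehydrase. Gs25760 had 16.8 to 42.6 CPM in heat and 111 to 238 CPM in cold. Its log2 fold change of 2.54 (edgeR adjusted p = 6.49e-05, standard error 0.30) was the largest of the listed genes. The gene of 3-oxoacyl-ACP synthase II, Gs14230, which encodes a condensing enzyme, had 88.8 to 164 CPM in heat and 418 to 778 CPM in cold (log2 fold change 2.28, edgeR adjusted p = 4.73e-05, standard error 0.25). Gs09490, for acetyl-CoA carboxylase and biotin carboxylase, which make the malonyl unit, had 189 to 267 CPM in heat and 596 to 944 CPM in cold (log2 fold change 1.66, edgeR adjusted p = 0.000126, standard error 0.22). Gs14230 and Gs09490 are on the study's list, and Gs25760 is not. In each of these 3 genes every cold library lay above every heat library, which held for 17% of all tested genes.

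The reductases of the same cycle were not past the threshold. The enoyl-ACP reductase gene Gs47760, for the step that follows the dehydrase, had 113 to 189 CPM in heat and 247 to 410 CPM in cold without overlap. Its log2 fold change of 1.13 (edgeR adjusted p = 0.00115, standard error 0.21) was under the 2.5-fold minimum. The 3-oxoacyl-ACP reductase gene Gs56930, for the step before the dehydrase, had a log2 fold change of 0.19 (edgeR adjusted p = 0.297, standard error 0.14), and its heat and cold ranges overlapped. The single gene on the lipid A list, Gs47350, for the acyltransferase that in bacteria uses the same hydroxyacyl-ACP as the dehydrase, rose from 12.9 to 16.0 CPM in heat to 27.0 to 65.1 CPM in cold (log2 fold change 1.50, edgeR adjusted p = 0.000609, standard error 0.26). Without culture A of C-28.2 this gene was not past the threshold and 4 listed genes were.

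**Figure D3:**
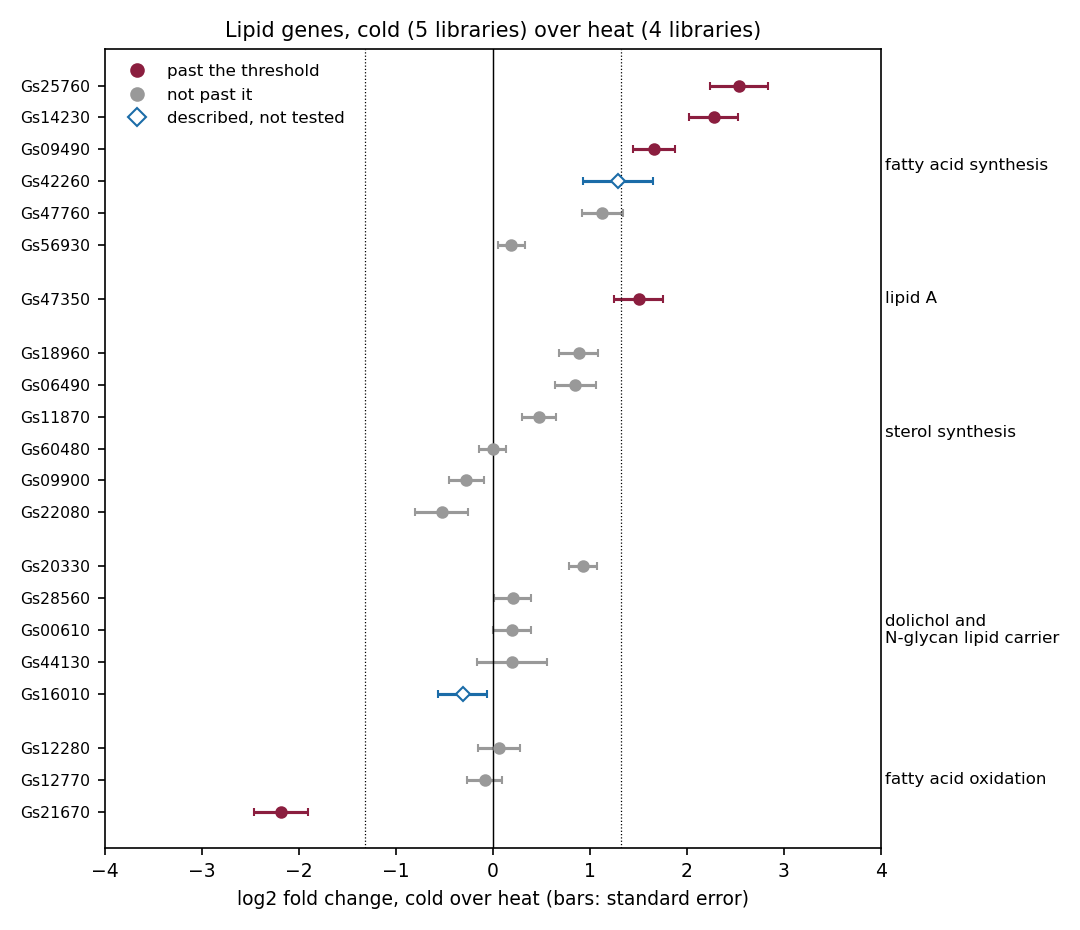
Log2 fold change of cold (5 libraries) over heat (4 libraries) for the 19 listed genes, with Gs42260 and Gs16010 as open diamonds; bars are standard errors and dotted lines mark the 2.5-fold minimum. Of the listed genes, 4 lie past the threshold on the right and 1, the acyl-CoA oxidase gene Gs21670, on the left.

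Taken by shift, 3 of the 5 fatty acid synthesis genes rose at the first, C-28.1 against H-42, where 11.7% of all tested genes were called and 6.31% were called higher. At the second, C-28.2 against H-46, 4 of the 5 rose, where 10.2% of all tested genes were called and 5.65% were called higher. The additional gene was Gs47760 with a log2 fold change of 1.41 (edgeR adjusted p = 0.00332, standard error 0.28) at the second shift. At the first it had 0.90 (edgeR adjusted p = 0.0157, standard error 0.26). The condensing enzyme and carboxylase genes were nearly alike at both shifts, with log2 fold changes of 2.21 and 2.27 in Gs14230 and of 1.70 and 1.52 in Gs09490. The difference between the shifts was 0.06 in Gs14230 (95% confidence interval -0.71 to 0.83), -0.18 in Gs09490 (-0.91 to 0.55), 0.60 in Gs25760 (-0.47 to 1.67), 0.51 in Gs47760 (-0.30 to 1.32) and 0.98 in Gs47350 (0.24 to 1.72). For Gs21670, the acyl-CoA oxidase gene, it was -1.40 (-2.25 to -0.54, adjusted p = 0.0933 from edgeR). It was not past the threshold in any of the 19 listed genes in edgeR, as in 0% of all genes, nor in DESeq2. An unadjusted p below 0.05 was found in 2 of the 19, against 24.8% of all tested genes. Whether Gs42260 differs in this from the other genes of its pathway was not tested.

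**Figure D4:**
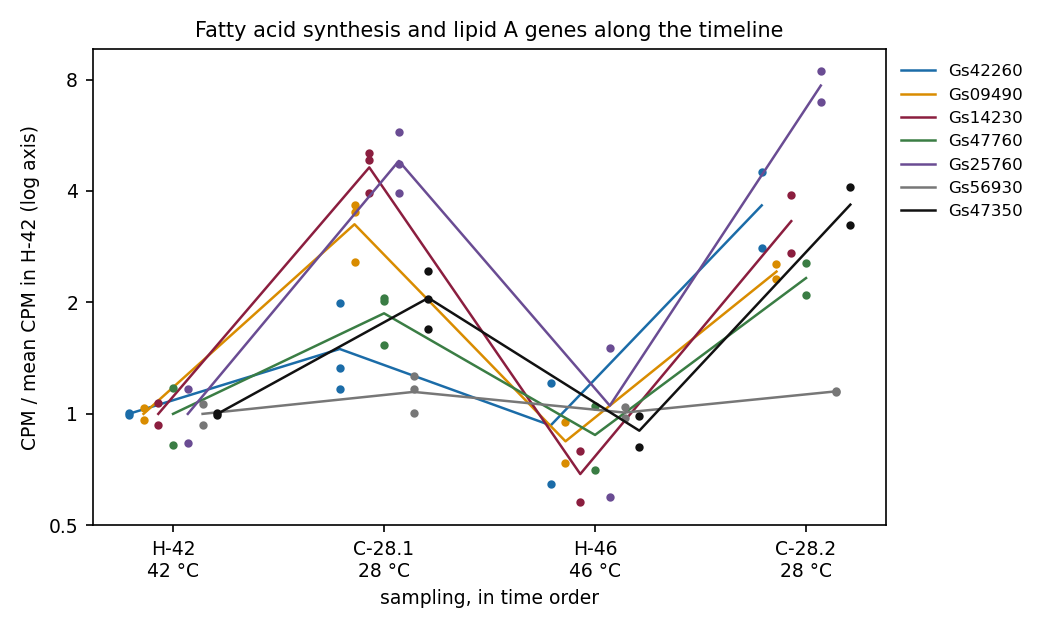
Level of Gs42260, of the 5 listed fatty acid synthesis genes and of the lipid A gene Gs47350 relative to the mean of H-42, by sampling, on a log axis; points are libraries and lines join the means. Gs42260 averages 1.50 times its H-42 level in C-28.1 and 3.66 times in C-28.2, while Gs14230 averages 4.63 and 3.32 times.

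In the pathways nearer to the name of Gs16010 no gene was past the threshold in cold against heat. Across all tested genes 9.87% were past it and 49.9% had an unadjusted p below 0.05, so that counts over so few genes show nothing particular to these pathways. Of the 6 sterol synthesis genes 0 were called by edgeR or DESeq2, with 3 at an unadjusted p below 0.05 and a median log2 fold change of 0.24. The smallest p was that of the delta14-sterol reductase gene Gs18960, with 60.1 to 72.6 CPM in heat and 74.1 to 143 CPM in cold (log2 fold change 0.89, edgeR adjusted p = 0.00368, standard error 0.20). It was followed by Gs06490, for sterol 14-demethylase (log2 fold change 0.85, edgeR adjusted p = 0.00677, standard error 0.21). Methylsterol monooxygenase, Gs60480, which is on the study's list, had a value of 0.00 (standard error 0.14). In 2 of the 6 genes the value was negative. These were Gs22080 with -0.52 (edgeR adjusted p = 0.140, standard error 0.27) and Gs09900 with -0.27 (edgeR adjusted p = 0.240, standard error 0.18). Of the 4 genes of the dolichol list 0 were called by either tool, with 1 at an unadjusted p below 0.05. That gene, Gs20330 for dolichol-phosphate mannosyltransferase, which loads mannose onto dolichol phosphate, had 31.4 to 36.4 CPM in heat and 59.1 to 68.2 CPM in cold (log2 fold change 0.93, edgeR adjusted p = 0.000306, standard error 0.14), below the fold change minimum. A further dolichol-phosphate mannosyltransferase gene, Gs00610, had a log2 fold change of 0.20 (standard error 0.19).

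On the list of fatty acid oxidation 1 of 3 genes fell in cold, as did 4.47% of all tested genes. The acyl-CoA oxidase gene Gs21670, for the first step of peroxisomal oxidation, had 121 to 193 CPM in heat and 18.4 to 49.1 CPM in cold (log2 fold change -2.18, edgeR adjusted p = 9.22e-05, standard error 0.28). Both enoyl-CoA hydratase genes, Gs12280 and Gs12770, had log2 fold changes between -0.08 and 0.06 and overlapping ranges.

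The named genes most like each of the lipid enzyme genes over the 9 libraries were found by Pearson correlation of log2(CPM + 1), a description over libraries that share 4 samplings and 3 cultures. For Gs42260 these were Gs07630 (cystathionine beta-lyase, r = 0.943), Gs35310 (3-isopropylmalate dehydrogenase, 0.941), Gs07960 (myo-inositol 2-dehydrogenase, 0.941), Gs36380 (60S ribosomal protein L17e, 0.939) and Gs22510 (nucleic acid binding protein, 0.934). None of them is on the lipid lists. In Gs07630 the highest libraries were again those of C-28.2, with 128 and 118 CPM against 60.9 to 83.6 CPM in the other 7. In all 73 of 6263 genes had r above 0.9 with Gs42260, and 21 unnamed genes ranked above the first named one. Only 765 of the 6263 genes were named, from study tables that include its heat and cold list. By Spearman correlation 1 of these 5 named genes remained, so the order is uncertain.

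For Gs16010 the most alike named gene was Gs07980, for CDP-diacylglycerol--glycerol-3-phosphate 3-phosphatidyltransferase (r = 0.898), which makes the precursor of phosphatidylglycerol. Its levels were 47.0 and 43.4 CPM in H-42, 28.5, 20.3 and 21.2 CPM in C-28.1, 60.8 and 25.9 CPM in H-46 and 24.3 and 23.4 CPM in C-28.2. As in Gs16010, culture A of H-46 was the highest library. Next came Gs23390 (zinc-containing alcohol dehydrogenase, 0.879), Gs06330 (a tetratricopeptide repeat protein, 0.869), Gs54450 (methyltransferase, 0.860) and Gs21480 (50S ribosomal protein L24, mitochondrial, 0.831). In Gs16010 2 genes had r above 0.9, and 2 unnamed genes ranked above the first named one. With the counting error of Gs16010 this order is uncertain, and 3 of the 5 remained by Spearman correlation.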

How the data were processed

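The deposited values are whole-number read counts without normalization, 1 per gene for 6538 genes, in 9 libraries. The study describes trimming, mapping with STAR and removal of multi-mapped reads for its splicing analysis; the counter, annotation and strand setting are not given in the sources used here. Product names came from the study's tables (1164 genes), gene order from assembly ASM34128v1, with which 6510 genes matched by locus tag. No sequence is printed.

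In R 4.3.3 the quasi-likelihood test of edgeR 4.0.16, with limma 3.58.1, was run after TMM on the 6264 genes kept by filterByExpr, by condition or by 4 samplings. A call needed a Benjamini-Hochberg p under 0.01 and more than a 2.5-fold change. DESeq2 1.42.0 was an alternative. Standard errors are the log2 fold change over the square root of F. The test was also run on simulated data, but the outcome is not given here and is no support for the calls. Genes named are both lipid enzyme genes, their neighbours and the 5 most alike named genes of each. List genes are named when past the threshold, or otherwise the one of smallest p. Gs47760, Gs56930, Gs06490, Gs60480, Gs22080, Gs09900, Gs20330, Gs00610, Gs12280 and Gs12770 were added as list members after their values were seen. The genes and lists were chosen with earlier results of these data known.

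Samplings and cultures came from the labels. Same-culture libraries pair by design; their deviations from the sampling means correlated at 0.0389 to 0.571 in 10 pairs. Cultures A and B of C-28.1 carry the same adapter index; their counts differed (chi-square 25.0 per gene). Replicates of H-46 and C-28.2 differed most (74.2 and 66.1, against 12.6 to 25.0 elsewhere). Each library is 1 culture at 1 sampling.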

Additional observations from a re-analysis of the deposited data

Results flagged for a closer look

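In 70 groups of heat or cold libraries of the named genes, 5 had a library set apart from the rest of its group. Neither Gs42260 nor Gs16010 was among them. About 1 in 20 groups would have such a library by chance if the libraries were independent draws. These groups pool samplings of the same cultures, so that rate does not strictly apply. The figure given is the gap to the nearest library as a share of the range. Culture C of H-46 lay below the other heat libraries in Gs47350 (12.9 CPM, 0.9). Culture A of H-46 lay above them in Gs09900, for C-5 sterol desaturase (114 CPM, 0.832), and below them in Gs36380 (204 CPM, 0.892). Culture C of H-42 was the lowest heat library in Gs11870, for diphosphomevalonate decarboxylase (32.3 CPM, 0.905). Culture C of C-28.2 was the highest cold library in Gs28560, for the enzyme that starts the sugar chain on dolichol phosphate (81.6 CPM, 0.831). The causes were not tested.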

How the results depend on the processing

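The alternatives were RLE factors, library totals, DESeq2, a looser and a stricter filter on low counts, a replicate block for culture, other thresholds and each library left out. The called list genes numbered 5 under all of these except 9 with no fold change minimum and 4 to 5 with a library left out. With culture as a replicate block Gs42260 passed in C-28.2 against C-28.1 (1.46), and its H-46 against H-42 value turned to 0.099; it changed no other call of either gene, and the same listed genes were called with it in cold against heat and at each shift. With library totals only, where all tested genes had a median of -0.10 in cold over heat, H-46 against H-42 turned to 0.0079 in Gs42260 and 0.12 in Gs16010. Over the fits leaving out one library, H-46 against H-42 ranged from -0.63 to 0.27 in Gs42260 and from -0.54 to 0.34 in Gs16010, the difference between the cold shifts from 1.02 to 1.91 and from -0.25 to 0.64, C-28.2 against C-28.1 from 0.91 to 1.59 and from 0.018 to 0.14, and cold over heat from 0.93 to 1.47 and from -0.44 to -0.17. In H-46 against H-42, edgeR called 3 of the 6264 genes and DESeq2 23. The causes were not tested. By Spearman correlation 1 of the 5 named genes most like Gs42260 remained, and 3 of those most like Gs16010. The low counts of Gs16010 and the few libraries of each sampling limit every statement on it.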
